A study of Rattus norvegicus with 9 samples.

Results

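The mitochondrial ribosomal proteins, the protein parts of the ribosome that works inside mitochondria, were followed in the left ventricle of rats 28 days after myocardial infarction (MI), with and without dapagliflozin (DAPA), an inhibitor of the sodium-glucose cotransporter SGLT2. The genes were taken by name, as every entry whose symbol begins with Mrpl or Mrps followed by a number, and 76 of the 35843 genes in the table met this rule, 46 named for the large subunit and 30 for the small subunit. Adult male Sprague-Dawley rats had either a sham operation or the left anterior descending artery of the heart tied off. Group Sham and group MI received saline by daily gavage, and group MI + DAPA (1st d) had the infarct and DAPA at 1 mg/kg by daily gavage from the first day. RNA-seq was available for 3 rats per group, 9 in all, and the levels were deposited as FPKM, fragment counts scaled to transcript length and library size. According to the study's methods, molecular work mainly used the border of the infarct with the scar removed and the corresponding part of the Sham heart. For the RNA-seq, however, its methods name left ventricles, and its results name infarct myocardium for both infarcted groups. Whether scar was left out of these libraries is not stated.

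Mitochondria keep a small genome of their own that encodes a few core subunits of the respiratory chain and of ATP synthase, and these can only be translated by the mitochondrial ribosome. The ribosomal RNAs come from the mitochondrial genome, whereas the ribosomal proteins are encoded in the nucleus, made in the cytosol and imported. Some have counterparts in bacterial ribosomes and others are found only in mitochondria. Heart muscle, which relies on oxidative phosphorylation (OXPHOS), is rich in mitochondria, and inherited defects in several of these proteins are known in people with cardiomyopathy.

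The promoters of the family were searched for letters that its genes share. RefSeq promoter sequences of the rat build GRCr8, each with 250 bases before and 50 bases after the annotated start, were matched by symbol for 60 of the 76 genes. Those of 4 genes are printed 5′ to 3′ on the strand of the gene, namely the pair with the smallest p in the comparison of MI + DAPA (1st d) with MI (Mrpl32 and Mrps18c) and 2 of the genes with the smallest p in MI compared with Sham (Mrpl54 and Mrpl14). They lie at chr17:55260401-55260700 on the plus strand (Mrpl32), chr14:9122857-9123156 on the minus strand (Mrps18c), chr7:9103275-9103574 on the plus strand (Mrpl54) and chr9:22811184-22811483 on the minus strand (Mrpl14). Capitals mark matches to the motif letters of NRF1, of ETS factors or of the E-box, and matches to the SP1 letters are left in lower case.
Mrpl32: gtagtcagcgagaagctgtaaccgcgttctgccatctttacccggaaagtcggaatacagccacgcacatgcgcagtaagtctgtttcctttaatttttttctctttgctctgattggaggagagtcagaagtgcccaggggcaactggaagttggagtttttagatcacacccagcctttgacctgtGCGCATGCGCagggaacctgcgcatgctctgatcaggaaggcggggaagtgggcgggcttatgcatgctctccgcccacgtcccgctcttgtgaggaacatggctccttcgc
Mrps18c: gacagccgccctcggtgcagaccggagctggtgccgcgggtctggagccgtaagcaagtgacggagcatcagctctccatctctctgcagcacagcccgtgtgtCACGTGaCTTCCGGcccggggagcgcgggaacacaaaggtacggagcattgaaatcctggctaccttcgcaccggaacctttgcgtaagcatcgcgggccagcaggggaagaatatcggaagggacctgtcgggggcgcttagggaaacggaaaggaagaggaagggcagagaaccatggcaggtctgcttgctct
Mrpl54: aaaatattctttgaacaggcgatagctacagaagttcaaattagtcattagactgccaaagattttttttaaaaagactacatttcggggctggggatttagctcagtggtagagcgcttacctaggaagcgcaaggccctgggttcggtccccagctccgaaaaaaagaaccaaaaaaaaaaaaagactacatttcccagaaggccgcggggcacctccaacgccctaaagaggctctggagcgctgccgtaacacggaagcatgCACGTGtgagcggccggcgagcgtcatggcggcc
Mrpl14: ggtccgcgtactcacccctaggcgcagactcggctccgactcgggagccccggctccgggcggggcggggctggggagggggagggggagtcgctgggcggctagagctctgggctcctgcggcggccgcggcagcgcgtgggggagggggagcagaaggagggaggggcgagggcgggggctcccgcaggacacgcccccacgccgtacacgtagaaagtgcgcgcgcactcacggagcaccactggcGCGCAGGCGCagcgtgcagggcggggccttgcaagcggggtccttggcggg
NRF1 and the ETS factor GABP are known as nuclear regulators of mitochondrial genes. The Mrpl32 and Mrpl14 windows each held the NRF1 letters once. The Mrps18c window held an E-box and, 1 base further, the ETS letters on the other strand, and the Mrpl54 window held an E-box just after the start.

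Motif letters were searched on both strands in all 60 windows. The NRF1 letters (GCGCA, any base, then GCGC) stood in 15% of the mitoribosomal promoters and in 4.71% of all 27457 promoters in the table. For the ETS letters CCGGAAG the shares were 35% and 9.22%, and for the YY1 letters AAGATGGCG they were 15% and 1.93%. The E-box CACGTG was found in 6 of the 60 windows, against 6.65% of all promoters, and the SP1 letters GGGCGG in 30 of the 60, against 34.9%. The ETS and YY1 letters can share 3 bases, which happened in 0 of the 60 windows. Another gene started on the opposite strand within 1000 bases in 31.7% of the 60 genes, against 13.8% of all genes, among them Mrpl46 and Mrps11, which start 234 bases apart and point away from each other. Nuclear OXPHOS subunit genes had similar shares, with NRF1 letters in 19.1%, ETS letters in 29.4%, YY1 letters in 14.7% and an opposite start in 32.4% of 68 promoters. Cytosolic ribosomal protein genes, which are not mitochondrial, had ETS letters in 28.3% and SP1 letters in 50% of 60 promoters. In these, the shares were 6.67% for NRF1 letters, 5% for YY1 letters and 13.3% for an opposite start. These are counts of letters, and no binding was measured.

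The libraries held 13597239 to 17210909 reads as recovered from the FPKM steps, with 5702454 to 13171891 of them from nuclear genes. The mitochondrial genome took 63.2% ± 3.18 of the reads in Sham rats, 13.8% ± 6.15 in MI rats and 25.6% ± 7.42 in MI + DAPA rats (SD, n = 3 per group). The deposited scaling follows the bulk of the genes and is little affected by this share, but scaling to all recovered reads is not: the median log2 fold change of all genes tested in MI compared with Sham was -0.01 as deposited and 0.92 after scaling to all reads. Cardiomyocyte markers were present in every group (21 of 23 listed genes found, none at 0 in a whole group), with a summed FPKM of 9941 to 14227 in Sham, 3268 to 16607 in MI and 13115 to 27403 in MI + DAPA rats. Fibroblast markers (10 of 10) summed to 531 to 842, 4125 to 8017 and 2611 to 4507 FPKM in the same order, macrophage markers (10 of 10) to 145 to 287, 942 to 1731 and 506 to 1077, and endothelial markers (8 of 9, with Cldn5 at 0 throughout) to 974 to 1176, 279 to 366 and 379 to 421. One rat stood apart, MI rat 2, which had the lowest cardiomyocyte sum of all 9 rats, at 3268 FPKM against 9013 and 16607 in the other MI rats, and a B cell and plasma cell marker sum of 3822 FPKM against 35.8 and 664 (6 of 7 listed genes found). In bulk tissue, fewer cells of a type and less RNA per cell cannot be told apart. The part of these cell markers and of the mitochondrial read share in the results was not tested.

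Of the 76 genes, 73 reached 1 FPKM in 3 or more of the rats compared and were tested in all 3 comparisons. Mrpl36 and Mrpl53 were listed at 0 in all 9 rats, and Mrps21l, a gene named for its likeness to Mrps21, ranged from 0 to 1.82 FPKM with at most 5 reads. Mean FPKM of the 73 genes over the 9 rats ran from 1.67 to 221 with a median of 25.99. The highest levels belonged to Mrpl33 (221 FPKM), Mrpl54 (132 FPKM) and Mrpl17 (95.2 FPKM), all large subunit proteins. The lowest were Mrpl1 (1.67 FPKM), a protein of the mobile L1 stalk, then Mrpl30 (2.03 FPKM) and Mrps10 (4.01 FPKM).

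Low genes were measured with few reads. Mrpl30, a large subunit protein, was at 3.10, 2.86 and 0.0775 FPKM in Sham rats 1 to 3, at 2.83, 1.35 and 1.94 in MI rats and at 0.0414, 3.04 and 3.00 in MI + DAPA rats. Sham rat 3 and MI + DAPA rat 1 rested on 2 reads each, against up to 160 reads in another rat, so Mrpl30 was nearly missing in 1 rat of each of those groups. Mrpl1 had 0.775, 2.37 and 0.205 FPKM in Sham rats, 2.70, 1.33 and 2.02 in MI rats and 2.78, 1.63 and 1.25 in MI + DAPA rats, and its groups overlapped in every comparison. A further 3 entries, spelled mrpl9, mrpl11 and mrpl24 in lower case in the table, did not meet the naming rule and were kept apart, and of these mrpl11 fell in MI (log2 fold change -0.90 ± 0.16 SE, limma adjusted p = 0.00566).

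In MI compared with Sham, which asks how the infarct changed the family, the mitoribosomal genes were moderately lower in the infarcted ventricle at the deposited scaling and higher when FPKM were rescaled to all reads. Of the 73 genes tested, 19 fell and 2 rose at an adjusted p under 0.05 in limma (Benjamini-Hochberg over 13485 genes), against a background of 19.5% of all genes that fell and 19.5% that rose. The falls made up 26.03% of the family and were not far above the background share, whereas the rises, 2.74%, were few. In all, 58 of the 73 log2 fold changes were negative and 15 positive (50.3% and 49.7% of all genes), with a median of -0.38 against -0.01 for all genes, but after scaling to all recovered reads only 3 were negative and the median was 0.69, against 0.92 for all genes. Relative to all genes, the median of the family was thus lower by either scaling, by -0.37 as deposited and by -0.24 after scaling to all reads. Groups did not overlap for 30 lower and 3 higher genes, where 27.5% and 27.1% of all genes did so.

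**Figure D1:**
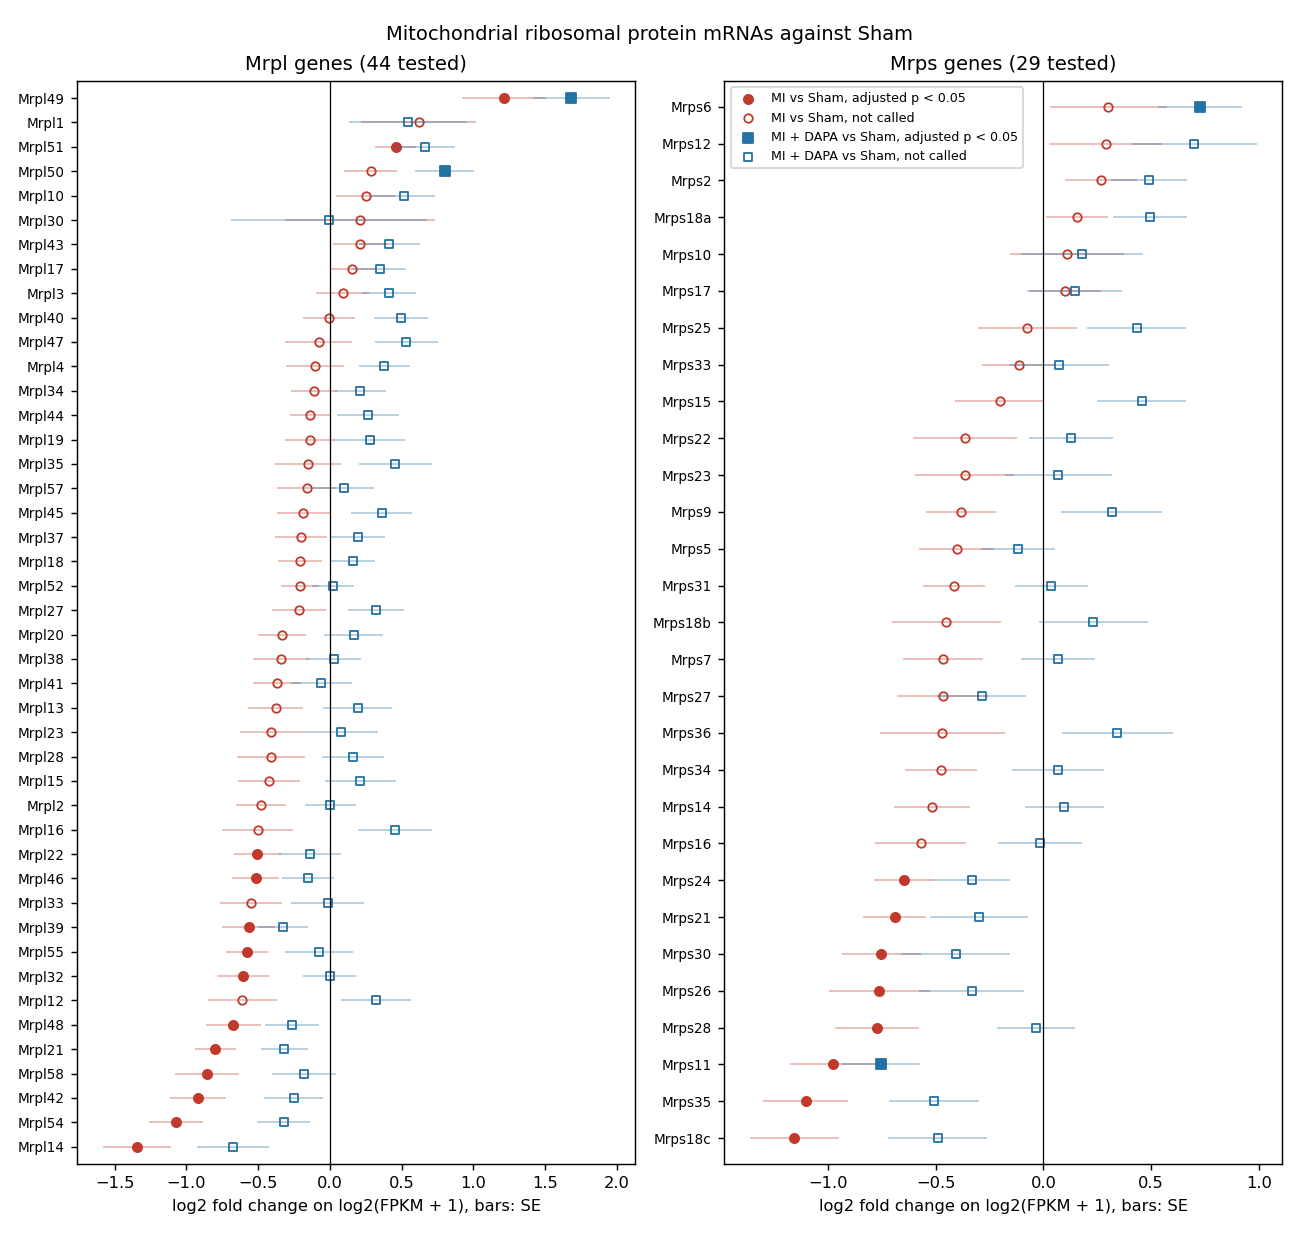
Log2 fold change with its standard error, on log2(FPKM + 1), of the 44 Mrpl genes and 29 Mrps genes tested, for MI against Sham (circles) and MI + DAPA (1st d) against Sham (squares), with filled symbols for an adjusted p under 0.05 and n = 3 rats per group. Circles lie left of 0 for 58 of the 73 genes and squares for 25, at the deposited scaling, which turns for the circles when all reads set the scale (3 left of 0).

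The study's own call rule, used there on DESeq2 results, is an unadjusted p under 0.05 with an absolute log2 fold change over 1. Here it was applied throughout to the limma fits on log2(FPKM + 1), so its calls need not be those of the study. By this rule 4 genes were lower in MI (10.3% of all genes) and Mrpl49 was higher (12.1% of all genes). The 4 were Mrpl14, Mrps18c, Mrps35 and Mrpl54. Mrpl14, a conserved large subunit protein at the face that meets the small subunit, stood at 57.7, 83.2 and 82.0 FPKM in Sham rats and at 26.8, 22.2 and 37.9 FPKM in MI rats. Every MI rat was below every Sham rat, and the log2 fold change was -1.34 ± 0.24 (SE, limma adjusted p = 0.00563). RefSeq places Mrpl14 in overlap with Tmem63b, and the sources used here do not say whether strand was used in counting. In all, 19 genes of the family overlap another RefSeq entry. Mrpl22, Mrpl48, Mrpl55 and Mrps28 are among them, and these too fell in MI.

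Mrps18c is one of 3 vertebrate counterparts of a single bacterial small subunit protein. It was at 36.5, 35.2 and 55.9 FPKM in Sham rats against 18.9, 16.03 and 19.6 FPKM in MI rats, and fell by 1.16 on the log2 scale (SE 0.21, limma adjusted p = 0.00575). Mrps35, a small subunit protein without a bacterial counterpart, was at 23.4, 21.98 and 29.7 FPKM in Sham rats and 10.6, 9.08 and 13.8 FPKM in MI rats (log2 fold change -1.10 ± 0.20, limma adjusted p = 0.00573). In both genes the groups were fully separate. Mrpl54, a mitochondria-specific large subunit protein and the second most abundant of the family, had 169, 191 and 161 FPKM in Sham rats and 88.9, 63.9 and 96.5 FPKM in MI rats. It fell by 1.07 on the log2 scale (SE 0.19, limma adjusted p = 0.00548), although its log2 fold change was 0.031 after scaling to all reads. Mrpl21, a counterpart of bacterial L21, was nearly constant among MI rats at 12.3, 12.5 and 12.5 FPKM, below 21.6, 20.2 and 25.6 FPKM in Sham rats (log2 fold change -0.80 ± 0.14, limma adjusted p = 0.00565), and here too the sign turned, to 0.25, after scaling to all reads.

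The other 14 genes that fell lay between -0.98 and -0.50 on the log2 scale, from Mrps11 to Mrpl22. They include Mrps11 and Mrpl46, the pair that shares a promoter region, at -0.98 and -0.52, and Mrpl58, a peptidyl-tRNA hydrolase built into the large subunit that frees stalled ribosomes, at -0.85 ± 0.22 (SE, limma adjusted p = 0.0220). MI rats of these 14 genes were all below the Sham rats. By name, 11 of 44 Mrpl genes fell (25%) and 2 rose, with a median of -0.27. Of 29 Mrps genes 8 fell (27.6%) and none rose, with a median of -0.45. Among all genes 19.5% fell and 19.5% rose. The Mrps genes include Mrps18a and Mrps30, which despite their names are listed with the large subunit, and Mrps30 was among the 8 that fell. Genes with bacterial counterparts (42 tested, 10 or 23.8% fell, median -0.39) and mitochondria-specific ones (30 tested, 9 or 30% fell and 2 rose, median -0.36) had similar medians. These classes did not hold all 73 genes tested. Mrps36, which had no RefSeq entry under that symbol, was counted by its name with the family and the Mrps genes. Its log2 fold change was -0.47 ± 0.29 in MI compared with Sham (SE, limma adjusted p = 0.237). In MI + DAPA (1st d) compared with MI it was 0.81 ± 0.33 (SE).

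The 2 genes that rose were both mitochondria-specific large subunit genes of low level. Mrpl49 was at 1.31, 2.68 and 3.35 FPKM in Sham rats and at 7.22, 4.90 and 8.51 FPKM in MI rats, without overlap (log2 fold change 1.21 ± 0.29, limma adjusted p = 0.0171). It was measured with 7 to 100 reads, starts 186 bases from Fau on the opposite strand and overlaps Syvn1 in RefSeq. Its call was lost without MI rat 1 or MI rat 3 (limma adjusted p = 0.0561 and 0.0555). Mrpl51 was at 6.66, 5.85 and 5.999 FPKM in Sham rats and 8.92, 8.38 and 9.22 FPKM in MI rats (log2 fold change 0.46 ± 0.14, limma adjusted p = 0.0382). The call of Mrpl51 was lost in 9 of the 11 refits other than scaling to all reads, 5 of them with a rat left out, at limma adjusted p between 0.0553 and 0.121. Mrps2, Mrpl1 and Mrpl50 were next in p among the genes with a positive fold change, at 0.27, 0.62 and 0.28, and did not pass the test (limma adjusted p between 0.246 and 0.262).

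The count of falls depended on single rats, in the family as among all genes. It was 11 without MI rat 2, 11 without Sham rat 3 and 12 without MI rat 1. Among all genes 1898, 1676 and 1712 fell in these refits, against 2635 with every rat kept. After scaling to all reads 0 genes of the family fell and 55 rose, where 520 of all genes fell and 9039 rose. The median was -0.23 without MI rat 2, the rat with the fewest cardiomyocyte transcripts, which was the lowest of all 9 rats in 47 of the 73 genes. Of the falls, 9 kept an adjusted p under 0.05 in each of 11 refits (another pseudocount, no filter, all 9 rats in 1 fit, a replicate block, scaling without the mitochondrial genome and each of the 6 rats left out), namely those of Mrpl14, Mrpl21, Mrpl42, Mrpl54, Mrps11, Mrps18c, Mrps21, Mrps24 and Mrps35. Of these 9, only Mrpl14, Mrpl54, Mrps18c and Mrps35 also met the study's call rule. None was called lower after scaling to all reads.

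**Figure D2:**
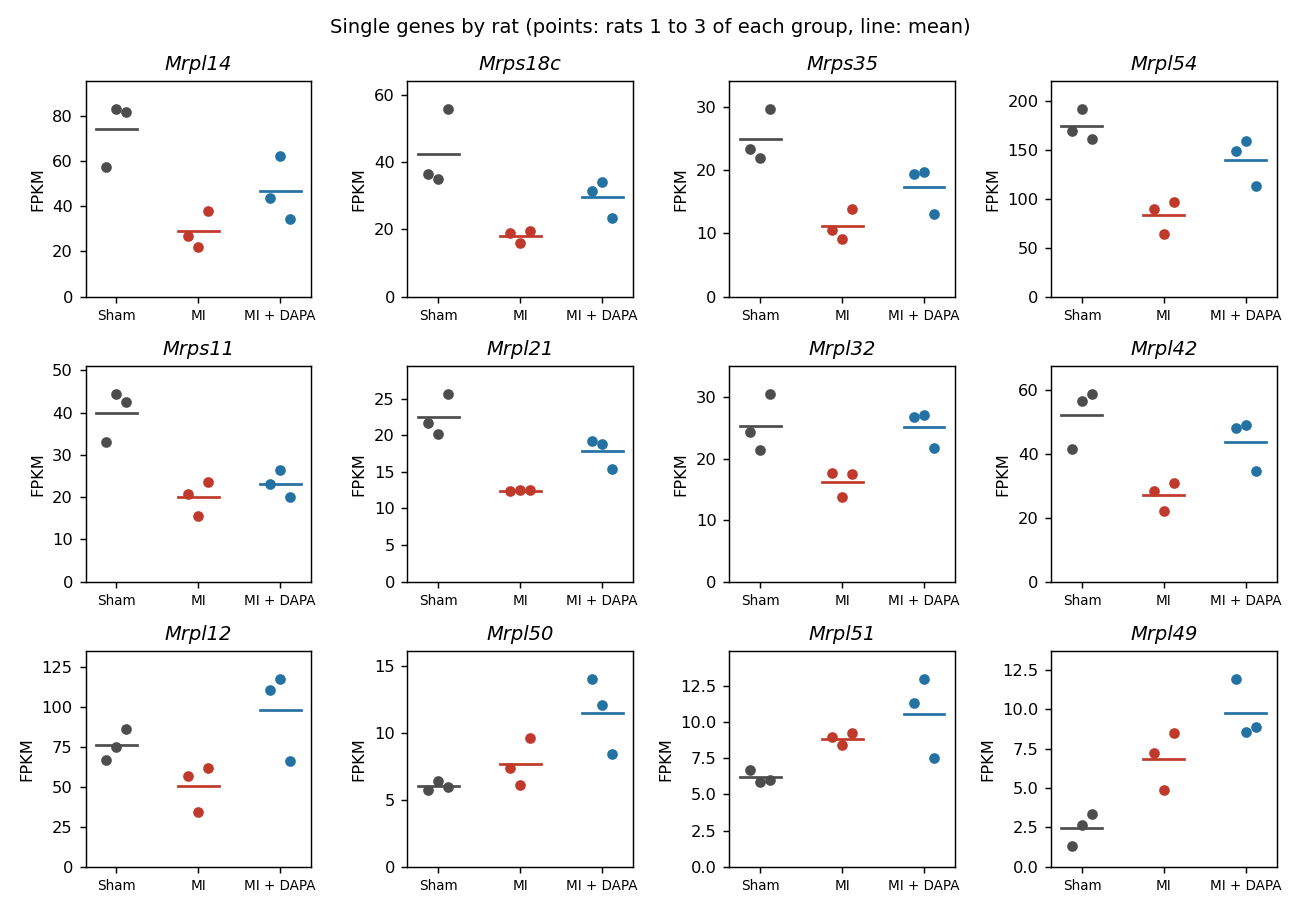
FPKM of 12 mitoribosomal genes in each rat (points, rats 1 to 3 of each group from left to right) with the group mean (line) and axes from 0. The MI rats lie below the Sham rats in the first 9 genes and above them in Mrpl51 and Mrpl49, while Mrpl50 separates Sham from MI + DAPA (1st d) only.

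DAPA given from the first day was compared with saline after MI to ask what the drug changed in infarcted hearts. No gene of the table, and so none of the 73, passed an adjusted p under 0.05 in limma (0% of 13251 genes called in either direction, smallest adjusted p = 0.558). At an unadjusted p under 0.05, 28 mitoribosomal genes were higher and 0 lower in MI + DAPA rats, against 4.59% of all genes higher and 3.90% lower. The 28 genes make 38.4% of the family. Positive log2 fold changes were found in 71 of the 73 genes, against 47.2% of all genes, with a median of 0.47 against -0.02 for all genes. After scaling to all recovered reads 64 were positive and the median was 0.26, against -0.21 for all genes. In 23 genes the MI + DAPA rats all lay above the MI rats and in 0 genes below, against 6.63% and 7.16% of all genes. With the study's call rule applied to the limma fit, no gene of the family was called (0.951% of all genes higher, 1.11% lower).

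Mrpl32, a large subunit protein that is processed by the m-AAA protease before it is built in, had the smallest p of the family. It stood at 17.6, 13.8 and 17.5 FPKM in MI rats and at 26.8, 27.2 and 21.7 FPKM in MI + DAPA rats, without overlap, beside 24.3, 21.4 and 30.5 FPKM in Sham rats. The log2 fold change from MI to MI + DAPA was 0.60 ± 0.16 (SE, limma adjusted p = 0.558). Mrps18c was at 31.4, 34.1 and 23.5 FPKM and Mrpl21 at 19.2, 18.9 and 15.4 FPKM in MI + DAPA rats, all above the MI values given earlier, with log2 fold changes of 0.67 ± 0.18 and 0.48 ± 0.13. Mrpl54, at 148, 159 and 113 FPKM in MI + DAPA rats, had 0.75 ± 0.22. Mrpl42, a mitochondria-specific protein, was at 28.4, 22.1 and 30.7 FPKM in MI rats and 47.9, 48.8 and 34.4 FPKM in MI + DAPA rats (log2 fold change 0.67 ± 0.20), again without overlap. MI + DAPA rat 3 was the lowest of its group in all 5 of these genes, and it had the lowest cardiomyocyte marker sum of its group (13115 FPKM).

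Mrpl12, the mobile stalk protein to which translation factors bind and which has been described as a partner of the mitochondrial RNA polymerase, was at 67.1, 74.9 and 86.1 FPKM in Sham rats, 56.5, 34.2 and 61.8 FPKM in MI rats and 110, 117 and 65.9 FPKM in MI + DAPA rats. The MI rats were lowest and 2 of the 3 MI + DAPA rats were above every Sham rat. Its log2 fold change was -0.61 ± 0.24 in MI compared with Sham (limma adjusted p = 0.0826) and 0.93 ± 0.31 in MI + DAPA (1st d) compared with MI. Mrpl30 and Mrpl1, the pair with negative values in the latter comparison, were at -0.22 ± 0.54 and -0.07 ± 0.27, both with low reads and with groups that overlapped.

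By name, the median log2 fold change from MI to MI + DAPA (1st d) was 0.48 for 44 Mrpl genes and 0.44 for 29 Mrps genes. It was 0.48 for genes with bacterial counterparts and 0.42 for mitochondria-specific ones. The number of genes at an unadjusted p under 0.05 moved widely with single rats, from 6 without MI + DAPA rat 2 and 7 without MI + DAPA rat 1 to 53 without MI + DAPA rat 3, and it was 11 without MI rat 1, 8 without MI rat 2 and 36 without MI rat 3. It was 9 after scaling to all reads. The share of all genes at this threshold was not counted in these refits, so these moves cannot be set against it. The median stayed between 0.34 and 0.61 with each rat left out in turn, and at least 70 of the 73 genes were positive each time. The cardiomyocyte markers were also higher in this comparison, with a median of 1.23 and 20 of 21 positive, and none of them passed the adjusted test.

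**Figure D3:**
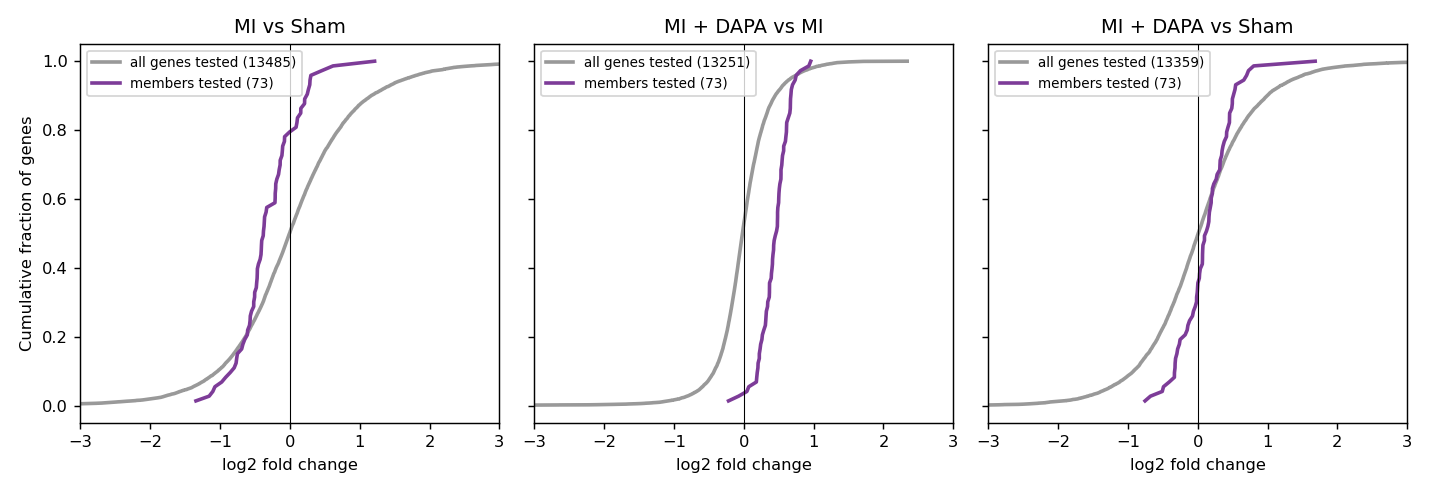
Cumulative fraction of genes (y axis) by log2 fold change on log2(FPKM + 1) (x axis, -3 to 3) in the 3 comparisons, for the 73 mitoribosomal genes tested and for all genes tested. The family curve lies left of 0 for 58 genes in MI vs Sham at the deposited scaling (3 when all reads set the scale) and right of 0 for 71 genes in MI + DAPA vs MI. In MI + DAPA vs Sham the family curve is steeper, with quartiles of -0.07 and 0.36 against -0.44 and 0.46 for all genes, and medians of 0.13 and 0.01.

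In MI + DAPA (1st d) compared with Sham, which shares its rats with the other comparisons, few mitoribosomal genes passed the test. In limma 3 rose and 1 fell at an adjusted p under 0.05, fewer than the 14.5% of 13359 genes that rose and the 14.1% that fell. The family median was 0.13 against 0.01 for all genes, with 48 positive and 25 negative genes (50.5% and 49.5% of all genes). It was 0.94 against 0.74 for all genes after scaling to all reads. By that scaling 64 genes of the family rose and 0 fell, where 7125 of all genes rose and 429 fell. At the deposited scaling and an unadjusted p under 0.05, 10 were higher and 3 lower (21.1% and 20.4% of all genes). The groups did not overlap in 9 higher and 5 lower genes (23.2% and 23.3% of all genes). By the study's call rule Mrpl49 alone was higher and no gene lower (9.54% and 8.16% of all genes).

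Mrpl49 was again the gene with the largest rise, at 11.9, 8.56 and 8.91 FPKM in MI + DAPA rats (log2 fold change 1.68 ± 0.27 SE, limma adjusted p = 0.00530), and it was the only one of the 4 that kept an adjusted p under 0.05 in each of the 11 refits other than scaling to all reads. Mrpl50, a mitochondria-specific large subunit protein, was at 5.76, 6.42 and 5.96 FPKM in Sham rats, 7.37, 6.11 and 9.62 FPKM in MI rats and 14.0, 12.1 and 8.43 FPKM in MI + DAPA rats, and rose by 0.80 ± 0.21 over Sham (limma adjusted p = 0.0246). Mrps6, a counterpart of bacterial S6, was at 26.7, 22.4 and 30.1 FPKM in Sham rats and 44.5, 53.3 and 35.98 FPKM in MI + DAPA rats (log2 fold change 0.73 ± 0.19, limma adjusted p = 0.0285). Its MI values of 39.98, 20.9 and 40.9 FPKM were spread on both sides of the Sham rats, and in RefSeq it overlaps Slc5a3, a solute transporter gene whose reads may not be separable.

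Mrps11, a counterpart of bacterial S11, was the gene that fell. It was at 33.0, 44.3 and 42.4 FPKM in Sham rats, 20.8, 15.4 and 23.6 FPKM in MI rats and 23.2, 26.4 and 20.1 FPKM in MI + DAPA rats. Its MI + DAPA rats overlapped the MI rats and lay below every Sham rat, with a log2 fold change from Sham of -0.75 ± 0.18 (limma adjusted p = 0.0194) that turned to 0.10 after scaling to all reads. Mrpl14 was at 43.7, 62.3 and 34.5 FPKM in MI + DAPA rats (log2 fold change from Sham -0.68 ± 0.25, limma adjusted p = 0.0820). Mrps35 was at 19.4, 19.8 and 13.1 FPKM (-0.51 ± 0.21, limma adjusted p = 0.107). Neither passed the test, and both signs turned after scaling to all reads, to 0.20 and 0.34. The calls of Mrpl50, Mrps6 and Mrps11 were each lost without at least 1 rat, all 3 of them without MI + DAPA rat 1 or without Sham rat 3.

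The group means of the 73 genes were in the order MI, Sham, MI + DAPA (1st d) from low to high for 35 genes and in the order MI, MI + DAPA (1st d), Sham for 23 genes. Sham was lowest and MI + DAPA (1st d) highest for 13 genes, Mrpl49, Mrpl50, Mrpl51 and Mrps6 among them, and MI was highest for 2 genes, the low Mrpl1 and Mrpl30. Many neighbours in these orders did not differ beyond their spread, as the counts of calls show. Averaged over the family, log2(FPKM + 1) was 4.601, 4.64 and 4.68 in Sham rats, 4.36, 4.09 and 4.52 in MI rats and 4.86, 4.97 and 4.48 in MI + DAPA rats. At this scaling the MI rats were all below the Sham rats, but MI rat 3 (4.52) lay above MI + DAPA rat 3 (4.48).

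As reads, the family took 23085 to 49746 reads per rat. Its share of the reads outside the mitochondrial genome was 0.376% to 0.405% in Sham rats, 0.218% to 0.318% in MI rats and 0.312% to 0.435% in MI + DAPA rats. Its share of all reads ran the other way between Sham and MI, with means of 0.143% in Sham, 0.232% in MI and 0.282% in MI + DAPA (1st d). The mitochondrial genome takes part in the second denominator and not in the first.

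The mRNAs that the mitochondrial ribosome translates moved much further than the ribosomal protein mRNAs. All 13 mitochondrial mRNAs fell in MI compared with Sham in limma, with a median log2 fold change of -3.31, and log2 fold changes from -3.61 (COX1, the catalytic core of cytochrome c oxidase) to -2.86 (ATP8, a small ATP synthase subunit). ND4, a complex I subunit, had 4226, 4670.2 and 5738 FPKM in Sham rats against 499, 223 and 733 FPKM in MI rats. From MI to MI + DAPA (1st d) all 13 were positive, with a median of 1.17, and none passed the adjusted test. Against Sham they were still lower in MI + DAPA rats, with a median of -2.13 and 9 of 13 called.

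Set within each library, where the scaling drops out of the ratio, the summed FPKM of the 13 mitochondrial mRNAs per summed FPKM of the ribosomal protein genes was 412, 406 and 486 in Sham rats. It was 67.0, 36.1 and 77.2 in MI rats and 97.2, 113 and 70.8 in MI + DAPA rats. All 6 infarcted rats were far below the Sham rats, and the ranges of MI and MI + DAPA (1st d) overlapped. On the log2 scale, the family mean minus the mean of the mitochondrial mRNAs was -10.56 ± 0.19 in Sham rats, -7.58 ± 0.62 in MI rats and -8.31 ± 0.37 in MI + DAPA rats (SD, n = 3 per group). MI and Sham differed by 2.98 and MI + DAPA (1st d) and MI by -0.73, the latter by -0.39 without MI rat 2. Libraries were selected for poly-A tails, and mitochondrial and nuclear mRNAs carry different tails, so the ratio describes these libraries and not molecules per cell.

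**Figure D4:**
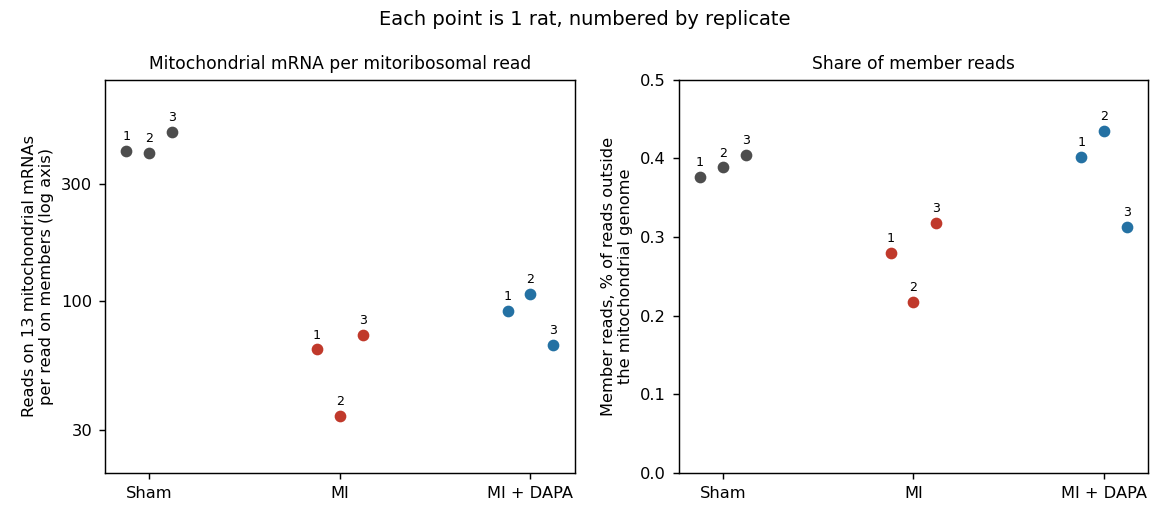
Left, reads on the 13 mitochondrial mRNAs per read on the mitoribosomal genes (log axis), and right, mitoribosomal reads as a percentage of the reads outside the mitochondrial genome (axis from 0), with 1 point per rat numbered by replicate. On the left Sham rats lie at 402 to 490 and infarcted rats at 34.2 to 107, and on the right MI rats lie at 0.218% to 0.318% against 0.376% to 0.405% in Sham rats.

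The nuclear OXPHOS subunits, the partners of the mitochondrial products in the respiratory chain, had medians between those of the family and of the mitochondrial mRNAs in MI compared with Sham and in MI + DAPA (1st d) compared with MI. In MI compared with Sham 33 of 76 fell (43.4%, against 19.5% of all genes) and none rose in limma, with a median of -0.83 against -0.38 for the ribosomal proteins. From MI to MI + DAPA (1st d) all 76 were positive with a median of 0.93, and against Sham the median was 0.17, above the 0.13 of the family. The family mean minus the OXPHOS mean, on log2(FPKM + 1), was -3.22 ± 0.17 in Sham rats, -2.75 ± 0.37 in MI rats and -3.22 ± 0.16 in MI + DAPA rats (SD, n = 3 per group). Of the proteins of the cytosolic ribosome, 14 of 81 fell and 4 rose in MI compared with Sham (17.3% and 4.94%, against 19.5% of all genes in each direction), with a median of -0.14 and a median of 0.14 in MI + DAPA (1st d) compared with MI. The cardiomyocyte markers had a median of -0.31 in MI compared with Sham, where 5 of 21 fell and 1 rose in limma (23.8% and 4.76%). In MI + DAPA (1st d) compared with Sham their median was 0.91, and 11 rose and 1 fell (52.4% and 4.76%). Among all genes 14.5% rose and 14.1% fell in that comparison. The medians of these groups are given side by side, and the differences between them were not tested.

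**Figure D5:**
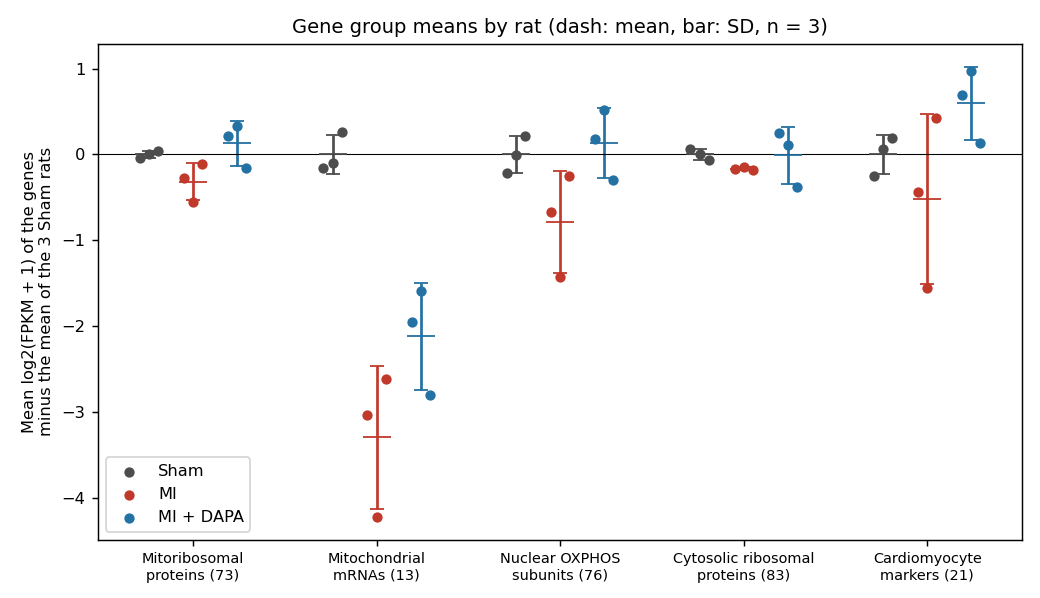
Mean log2(FPKM + 1) of 5 gene groups in each rat minus the mean of the 3 Sham rats (points), with the group mean (dash) and SD (bar, n = 3). At the deposited scaling the mitoribosomal genes of the MI rats lie below Sham (above it when all reads set the scale), and the mitochondrial mRNAs of MI and MI + DAPA rats lie far below Sham while MI rat 2 is lowest in all groups but the cytosolic ribosomal proteins.

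Other genes of mitochondrial translation showed where the family stood among its helpers. Of 5 further mitoribosomal proteins that carry other names, Aurkaip1, Chchd1 and Gadd45gip1 fell in MI and Dap3 and Ptcd3 did not pass the test. Aurkaip1, a small subunit protein, was at 97.9, 149 and 110 FPKM in Sham rats, 49.2, 41.5 and 46.8 FPKM in MI rats and 45.1, 57.4 and 44.4 FPKM in MI + DAPA rats, so that both infarcted groups lay at about one level (log2 fold change from Sham -1.34 ± 0.19, limma adjusted p = 0.00260, and -1.25 ± 0.20, limma adjusted p = 0.00569). Chchd1, also in the small subunit, was at 80.9, 85.8 and 113 FPKM in Sham rats, 46.7, 34.2 and 52.9 FPKM in MI rats and 76.4, 88.6 and 56.7 FPKM in MI + DAPA rats (log2 fold change -1.06 ± 0.21 from Sham to MI, limma adjusted p = 0.00866, and 0.71 ± 0.23 from MI to MI + DAPA, limma adjusted p = 0.558).

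Among 24 tested entries for assembly factors of the mitochondrial ribosome, 5 fell (20.8%) and 1 rose in MI compared with Sham (median -0.32), where 19.5% of all genes fell and 19.5% rose. Mtg1, a GTPase of large subunit assembly, fell by 0.73 on the log2 scale (SE 0.15, limma adjusted p = 0.00885), and Trub2, a pseudouridine synthase, rose by 0.80 (SE 0.16, limma adjusted p = 0.00828). Of 15 translation factors 2 fell (13.3%) and 1 rose (median -0.10). The riser was Tsfm, the mitochondrial elongation factor Ts, at 1.20, 1.05 and 2.74 FPKM in Sham rats and 5.46, 3.799 and 5.23 FPKM in MI rats (log2 fold change 1.17 ± 0.28, limma adjusted p = 0.0158), while Mtif2, the initiation factor, fell by 0.92 (SE 0.22, limma adjusted p = 0.0162). Of 16 mitochondrial aminoacyl-tRNA synthetases, which charge the tRNAs, 4 fell (25%) and none rose, Vars2 for valine (log2 fold change -0.84 ± 0.16, limma adjusted p = 0.00682) and Hars2 for histidine (-1.05 ± 0.23, limma adjusted p = 0.0119) having the smallest p. The shares that fell in these 3 lists were 13.3% to 25%, on both sides of the share of all genes.

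Of 5 genes of mitochondrial transcription, Mterf1 and Tfb2m fell in MI, in a list too short for its share to be read against that of all genes. Tfb2m, which helps the mitochondrial RNA polymerase start, was at 15.5, 20.1 and 15.4 FPKM in Sham rats, 8.04, 5.53 and 8.96 FPKM in MI rats and 12.5, 16.8 and 8.18 FPKM in MI + DAPA rats (log2 fold change from Sham to MI -1.09 ± 0.21, limma adjusted p = 0.00706). Tfam, which packages mitochondrial DNA and activates its transcription, was at 20.1, 14.7 and 20.1 FPKM in Sham rats and 20.8, 19.7 and 20.2 FPKM in MI rats (0.15 ± 0.16, limma adjusted p = 0.490) and at 26.6, 30.2 and 22.002 FPKM in MI + DAPA rats (0.35 ± 0.15 from MI, limma adjusted p = 0.558). In MI + DAPA (1st d) compared with MI the median was 0.20 for assembly factors, 0.27 for translation factors, 0.12 for the synthetases and 0.35 for transcription genes, against 0.47 for the ribosomal proteins. None of these genes passed the adjusted test. At an unadjusted p under 0.05, 1 assembly factor, 1 translation factor, 2 synthetases and 0 transcription genes were higher. These make 4.17%, 6.67%, 12.5% and 0% of their lists, where 4.59% of all genes were higher. Counts this small cannot be read against that share.

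The 3 counterparts of bacterial S18 differed in pattern. Mrps18c, with the values above, fell in MI. Mrps18b, like it a small subunit protein, was at 18.6, 16.7 and 26.3 FPKM in Sham rats, 15.1, 10.5 and 19.0 FPKM in MI rats and 30.7, 25.4 and 17.3 FPKM in MI + DAPA rats, with overlap in every comparison (log2 fold change from Sham to MI -0.45 ± 0.25, limma adjusted p = 0.199). Mrps18a, which despite its name is part of the large subunit, was at 27.1, 22.4 and 27.0 FPKM in Sham rats, 27.7, 26.6 and 30.9 FPKM in MI rats and 43.2, 33.4 and 32.8 FPKM in MI + DAPA rats. Its MI + DAPA rats lay above all others, with a log2 fold change from Sham of 0.50 ± 0.17 (limma adjusted p = 0.0657) that did not pass the test. Differences between the 3 genes were not tested.

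Mrpl3, Mrpl44, Mrps14 and Mrps22, 4 genes of the family linked to inherited human cardiomyopathy, were not called in any comparison. Among all genes 19.5% fell and 19.5% rose in MI compared with Sham, and 0% were called in MI + DAPA (1st d) compared with MI. In MI + DAPA (1st d) compared with Sham, 14.5% rose and 14.1% fell. A set of 4 genes is too small to be read against these shares. Mrpl3, a core large subunit protein, was at 25.8, 17.3 and 18.6 FPKM in Sham rats, 19.9, 21.1 and 24.01 FPKM in MI rats and 29.3, 28.6 and 24.3 FPKM in MI + DAPA rats. Mrpl44, a large subunit protein with an RNase III-like fold, ran from 13.3 to 15.6 FPKM in Sham rats, 12.1 to 13.6 FPKM in MI rats and 12.98 to 22.97 FPKM in MI + DAPA rats. Mrps14 had the lowest adjusted p of the 4 in MI compared with Sham, at 17.8, 16.8 and 19.996 FPKM in Sham rats and 13.2, 9.85 and 14.5 FPKM in MI rats (log2 fold change -0.52 ± 0.18, limma adjusted p = 0.0538). Mrps22, a mitochondria-specific small subunit protein, was at 12.9, 13.8 and 16.9 FPKM in Sham rats and 9.65, 8.55 and 15.96 FPKM in MI rats, which overlapped (-0.36 ± 0.24, limma adjusted p = 0.271). In MI + DAPA (1st d) compared with MI the 4 genes lay between 0.32 and 0.61 on the log2 scale, and Mrps14, at 21.3, 22.4 and 15.5 FPKM in MI + DAPA rats, was separate from MI.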

How the data were processed

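RNA-seq libraries were made by the authors from poly-A selected left ventricular RNA with a NEBNext Ultra kit. The submitters' processing notes name HISAT2 2.0.5, StringTie 1.3.3b, featureCounts 1.5.0-p3 and DESeq2. The genome build of the reads and the strand setting of the counting are not given in the sources used here. The deposited FPKM were scaled by the authors to transcript length and to a denominator of each library, with 1 column for each rat. Low values rose in steps of 1 read, so reads were recovered for 18896 of 18896 genes seen in at least 4 libraries (tolerance 0.01 read). The denominators recovered in this way were within a ratio of 0.993 to 1.01 of median-of-ratios size factors. Read numbers given for single genes bear on counting error only. The SE values come from the limma fits and reflect the spread between rats, as the SD values do.

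Because FPKM are not counts, log2(FPKM + 1) was tested with limma 3.58.1 (R 4.3.3, trend in the empirical Bayes step), 2 groups per fit, on genes that reached 1 FPKM in 3 or more rats. P-values were adjusted by Benjamini-Hochberg over all genes tested, and fold changes on this scale understate those of low genes. The study names 3 biological replicates per group, which are taken here as separate rats. Each sample title lists 2 sub-labels, and the sources used here do not say what they stand for. Genes named are the 5 higher and 5 lower of the family with the smallest p in each comparison, the 3 highest and 3 lowest levels, the S18 paralogues, the cardiomyopathy genes, Mrpl12, those not tested, and up to 2 genes per other list. Other genes were named after their values were seen. The family and the lists were chosen with earlier results of these data known. Cytosolic ribosomal proteins were taken by name, with the S6 kinases left out after the matches were seen. Overlaps between genes, and 75 of the 76 genes, were read from RefSeq (GRCr8). The test and the recovery were checked on simulated data. Python 3.11.15, numpy 2.4.6 and pandas 2.3.3 were used for recovery and lists. Alternatives were a pseudocount of 0.1, no filter, all 9 rats in 1 fit, a replicate block, 2 other scalings, 2 other call rules and each rat left out in turn.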

Additional observations from a re-analysis of the deposited data

How the results depend on the processing

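In MI compared with Sham, the 19 falls and 2 rises of the family became 0 falls and 55 rises, and the median turned to 0.69, when FPKM were rescaled to all recovered reads. Among all genes, 2635 falls and 2626 rises became 520 and 9039. In MI + DAPA (1st d) compared with Sham, 3 rises and 1 fall became 64 and 0 and the median 0.94. There, 1936 rises and 1886 falls among all genes became 7125 and 429. Under that scaling Mrpl54 was at 0.031 and Mrpl21 at 0.25 in MI compared with Sham, and Mrps11 at 0.10, Mrpl14 at 0.20, Mrps35 at 0.34, Mrps18c at 0.37 and Mrpl21 at 0.52 in MI + DAPA (1st d) compared with Sham. Rescaling includes or leaves out the mitochondrial genome by construction. With it left out, 1 gene of the family rose in MI and 3 fell in MI + DAPA (1st d) compared with Sham. Among all genes 2402 rose in the former comparison and 2118 fell in the latter. In the family, 1 gene rose in MI without the filter on low values and 1 with all 9 rats in 1 fit. Among all genes 2275 and 2802 rose in these fits. With all 9 rats in 1 fit, 5 genes of the family and 2185 of all genes rose in MI + DAPA (1st d) compared with Sham. By the study's call rule, 1 gene of the family rose and 4 fell in MI (12.1% and 10.3% of all genes). In MI + DAPA (1st d) compared with Sham, 1 rose and 0 fell (9.54% and 8.16% of all genes). At an unadjusted p under 0.05, 28 were higher in MI + DAPA (1st d) than in MI (4.59% of all genes). Against Sham, 10 were higher and 3 lower (21.1% and 20.4% of all genes). The cause of these moves was not tested.

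Leaving out each rat in turn gave 11 to 17 falls and 0 to 2 rises in MI, and 1 to 8 rises, 0 to 2 falls and a median of -0.015 to 0.27 in MI + DAPA (1st d) compared with Sham. Among all genes, these refits gave 1676 to 2114 falls and 1530 to 2357 rises in MI. They gave 867 to 1632 rises and 935 to 1577 falls in MI + DAPA (1st d) compared with Sham. In MI + DAPA (1st d) compared with MI, Mrpl30 ranged from -0.55 to 0.43, positive without MI + DAPA rat 1, and Mrpl1 from -0.29 to 0.089, positive without MI + DAPA rat 3 or MI rat 1. With the replicate number as a block, 1 gene of the family rose and 14 instead of 19 fell in MI. Among all genes 2230 rose and 2119 instead of 2635 fell. The calls of Mrpl22, Mrpl39, Mrpl46, Mrpl48, Mrpl51 and Mrps26 were lost there. In MI + DAPA (1st d) compared with MI, 8 genes of the family instead of 28 were at an unadjusted p under 0.05 with this block. All genes were not counted at that threshold. The rats share only a number: deviations of same-numbered rats correlated between -0.365 and 0.210 over 9 pairs, and the own number was the best match in 6 of 18 cases, so no pairing is taken from them. With 3 rats per group an exact permutation test of a single value cannot give a p below 0.1, and 3 genes were not tested, Mrps21l at no more than 5 reads and Mrpl36 and Mrpl53, which are listed at 0 in all 9 rats and whose expression cannot be read from that.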
